A study of Homo sapiens with 6 samples.

Results

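ZC3H11A and the genes of the transcription-export (TREX) complex and its export receptor were followed in sorafenib-resistant liver cancer cells in which the circular RNA cDCBLD2 had been knocked down. The set holds 10 of the 38637 genes in the table and was chosen by name. ZC3H11A was picked because its level differed in this same comparison, and THOC1, THOC2, THOC3, THOC5, THOC7, ALYREF, DDX39A, DDX39B and NXF1 were added for their known role in mRNA export. All 10 passed the expression filter, a mean over the libraries of 1 TPM or more, that left 13980 genes for testing. The cells were HCCLM3-SR, a sorafenib-resistant derivative of the human hepatocellular carcinoma (HCC) line HCCLM3, and 1 such line was used. Polyadenylated RNA was sequenced (PolyA-Seq) in 3 libraries with siRNA against cDCBLD2 (si_cDCBLD2) and in 3 with control siRNA (si_CTRL). Both groups received 5 μM sorafenib, a multikinase inhibitor, and the siRNA acted for 3 days. cDCBLD2 is a circular RNA made by back-splicing of exons of DCBLD2. The study sequenced these cells to look for what lies downstream of it in sorafenib resistance. Nothing in the labels says that the replicates were separate cultures, so the p-values measure only the spread between these libraries.

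As an mRNA is made and spliced in the nucleus, the THO subcomplex binds it together with the RNA helicase DDX39B, also called UAP56, or its close paralog DDX39A. The helicase loads adaptors such as ALYREF, and the assembly of THO, helicase and adaptors is TREX. The adaptors pass the mRNA to NXF1, the export receptor that carries it through the nuclear pore. ZC3H11A is a CCCH zinc finger protein that associates with TREX and supports the export of a subset of transcripts, including those of several viruses that replicate in the nucleus.

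Levels are given in TPM, in which reads are divided by gene length and scaled to a fixed total, so levels of different genes can be compared. The reads behind them were recovered from the ratios of the TPM values and came to between 17492673 and 23064302 per library, as lower bounds. The members had between 239 and 4041 recovered reads in each library. Fold changes are on the log2(TPM + 1) scale as si_cDCBLD2 minus si_CTRL, which understates the change of low genes, and come from limma fitted across the 13980 genes. They carry a standard error (SE) or a 95% confidence interval of the fit. The circular RNA itself has no row of its own in these data. Its host gene DCBLD2 was at 58.1, 25.9 and 31.6 TPM in si_cDCBLD2 replicates 1, 2 and 3. In si_CTRL it was at 71.5, 48.5 and 50.7 TPM, so the groups overlapped. It was lower in each same-numbered pair by 0.29 or more on the log2 scale. Its adjusted p was 0.253 in limma and 0.0139 with the replicate number as a block, here called the replicate block. With that block 25% of all genes tested were lower at an adjusted p under 0.05. Once the trend of each library with the GC content of transcripts was removed, its log2 fold change went from -0.61 to -0.28. The adjusted p in limma was then 0.471, and 0.0529 with the block. The paper reports no obvious, consistent change of DCBLD2 mRNA or protein after the knockdown in its resistant lines. Of 9 markers of liver cells, 4 had a mean of 1 TPM or more, and the summed level of all 9 was 5812 to 6975 TPM after knockdown and 4804 to 5621 TPM in controls. The sum came almost wholly from the epithelial keratins KRT8 (3644 to 4413 TPM after knockdown and 2999 to 3408 TPM in controls) and KRT18 (2161 to 2555 TPM and 1800 to 2209 TPM). Albumin (ALB, 0.189 to 1.59 TPM over all libraries), APOA1 (0.35 to 0.774 TPM), APOA2 (0 to 0.241 TPM) and FGB (0 to 0.124 TPM) were near 0, AFP was at 0.926 to 2.08 TPM, SERPINA1 at 1.3 to 3 TPM, and TTR at 1.3 to 1.64 TPM after knockdown and 0.202 to 0.241 TPM in controls. Of 5 markers of other cells, PTPRC was at 0.231 to 0.411 TPM, PECAM1 at 3.63 to 5.64 TPM, LYZ at 2.85 to 5.81 TPM and VIM at 22.8 to 28.5 TPM. COL1A1 was at 3.61 to 11.2 TPM after knockdown and 1.13 to 3.35 TPM in controls, and the sum of these 5 was 36.8 to 50.4 TPM and 33.2 to 40.5 TPM. The part of these markers in the results was not tested.

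After cDCBLD2 knockdown, ZC3H11A and THOC2 were each at less than 46% of their control mean, THOC1 was at 66.8%, and the other 7 members were between 83.4% and 102.8%. The 95% interval of the log2 fold change lay below 0 for ZC3H11A and THOC2. It included 0 for each of the other 8, among them the adaptor ALYREF and the receptor NXF1. ZC3H11A was picked on this same difference, so its interval carries no test. Of all genes tested, 19.4% were likewise lower at an unadjusted p under 0.05 in limma. In bulk libraries, fewer cells that express a gene and less RNA per cell cannot be told apart.

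ZC3H11A lies on the plus strand of chromosome 1 (GRCh38, chr1:203795654-203854999). It was at 15.7, 10.6 and 13.3 TPM in si_cDCBLD2 replicates 1, 2 and 3, against 29.9, 27.6 and 30.5 TPM in si_CTRL. The groups were far apart, and the control libraries lay close together. The recovered reads were 680, 625 and 726 after knockdown and 1259, 1384 and 1522 in controls. The means were 13.2 ± 2.54 TPM (SD, n = 3) in the knockdown group and 29.4 ± 1.5 TPM (SD, n = 3) in the control group. The log2 fold change was -1.11 (SE 0.142), which ranks it as number 77 from the lowest of the 13980 genes. Within the same-numbered pairs it was -0.89, -1.3 and -1.14. Because the gene was picked on this difference, these values are a description and carry no test.

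ZC3H11A shares its locus with ZBED6, a transcription factor derived from a DNA transposon, whose reading frame lies within the first intron of ZC3H11A. ZBED6 is on the same strand (chr1:203795714-203854999), so reads of the shared exons cannot be assigned to only 1 of the genes. ZBED6 was at 4.67, 2.06 and 3.09 TPM after knockdown and at 7.64, 6.49 and 8.08 TPM in controls, again with no overlap. Its log2 fold change was -1.02 (SE 0.233). Its adjusted p in limma was 0.0748, and 0.00891 with the replicate number as a block. The TPM ratio of ZBED6 to ZC3H11A was 0.241 ± 0.0521 (SD, n = 3) after knockdown and 0.252 ± 0.0156 (SD, n = 3) in controls, with overlap. Since the reads may be shared, this ratio does not show whether the transcripts moved together or separately. ZC3H11B, a single-exon copy of ZC3H11A elsewhere on chromosome 1, had at most 6 recovered reads in any library.

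Of the THO subunits, THOC2 is the large scaffold on which the others assemble. Its gene is on the minus strand of the X chromosome (chrX:123600561-123733056). THOC2 was at 15.8, 5.46 and 7.16 TPM in si_cDCBLD2 replicates 1, 2 and 3, against 26.6, 17.6 and 20.1 TPM in si_CTRL. Every knockdown library was below every control, but knockdown replicate 1 was close to the lowest control and far above the other knockdown libraries. The log2 fold change was -1.2 (SE 0.36), with a 95% interval from -2.06 to -0.34, lower in 3 of 3 pairs by 0.71 or more. Its adjusted p was 0.111 in limma without a block and 0.00753 with the replicate block.

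THOC1, the subunit first identified by its binding to the retinoblastoma protein, is on the minus strand of chromosome 18 (chr18:214520-268050). THOC1 was at 12.6, 6.55 and 8.46 TPM after knockdown and at 16.8, 11.3 and 13.2 TPM in controls. Knockdown replicate 1 lay above control replicate 2, so the groups overlapped, although THOC1 was lower within each of the 3 same-numbered pairs, with log2 differences of -0.39, -0.7 and -0.59. The log2 fold change was -0.56 (SE 0.243) and its interval, from -1.14 to 0.02, included 0. The adjusted p was 0.205 in limma and 0.00961 with the replicate block. The 3′ ends of THOC1 and USP14 overlap by 110 bases, and USP14, which lies on the opposite strand (chr18:158383-214629), was at 61.4 TPM on average after knockdown and 76.5 TPM in controls (adjusted p = 0.227 in limma and 0.00841 with the replicate block).

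THOC7, a small coiled-coil subunit, was the most abundant THO subunit, at 110, 97.4 and 87.5 TPM after knockdown and 130, 112 and 100 TPM in controls. Its groups overlapped and the log2 fold change was -0.21 (SE 0.125), but 0.13 once the trend of each library with GC content was removed. The 3 pairs differed by -0.25, -0.2 and -0.19, and the adjusted p was 0.32 in limma and 0.0153 with the replicate block. THOC3, a WD40-repeat subunit, was at 48.2, 45.5 and 42.1 TPM after knockdown and 52.3, 43.9 and 44.6 TPM in controls, and THOC5 was at 17, 15 and 14.1 TPM against 17, 14.4 and 13.5 TPM. These subunits were nearly level between the groups. The log2 fold change was -0.05 for THOC3 (95% interval -0.28 to 0.18) and 0.04 for THOC5 (-0.25 to 0.33), and each took the other sign under some alternatives, between -0.09 and 0.05 for THOC3 and between -0.03 and 0.14 for THOC5.

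The balance among the THO subunits within each library can be read from TPM ratios, in which a scaling factor common to a library cancels. The ratio of THOC2 to THOC5 was 0.933, 0.363 and 0.508 after knockdown and 1.56, 1.22 and 1.49 in controls. In controls THOC2 was thus the higher of these genes in every library, and after knockdown it was the lower in every library. The ratio of THOC1 to THOC5 was 0.743, 0.435 and 0.6 after knockdown and 0.991, 0.782 and 0.981 in controls, without overlap, unlike the THOC1 levels themselves. The ratio of THOC7 to THOC5 was 6.37 ± 0.149 (SD, n = 3) after knockdown and 7.62 ± 0.177 (SD, n = 3) in controls, and that of THOC3 to THOC5 was 2.95 ± 0.0969 and 3.14 ± 0.145 (SD, n = 3 each). All 4 ratios were lower in every knockdown library, and all have THOC5 as the denominator. A trend with GC content does not cancel in such ratios where the transcripts differ in GC. The reference transcript of THOC5 had 53.6% GC, against 38.3% for THOC2, 39.2% for THOC1, 41.4% for THOC7 and 51.5% for THOC3. The part of GC content in the ratios was not tested. THOC5 itself overlaps NIPSNAP1 by 409 bases on the same strand, and NIPSNAP1 was at 248 TPM after knockdown and 257 TPM in controls. Among all other genes tested, 27.8% had a ratio to THOC5 that was likewise lower without overlap.

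The helicase paralogs differed in abundance by nearly 3 to 1. DDX39B was at 235, 205 and 193 TPM after knockdown and 267, 213 and 222 TPM in controls, and DDX39A was at 83.1, 70.4 and 60.4 TPM against 101, 80.3 and 74.8 TPM. Both were slightly lower within every pair, and both pairs of groups overlapped. The log2 fold change was -0.26 for DDX39A (SE 0.155) and -0.15 for DDX39B (SE 0.114). DDX39A had an adjusted p of 0.332 in limma and 0.0133 with the replicate block, whereas DDX39B had 0.448 and 0.0589. The ratio of DDX39A to DDX39B was 0.337 ± 0.0216 (SD, n = 3) after knockdown and 0.365 ± 0.0238 (SD, n = 3) in controls, with overlap. DDX39B is uncertain for another reason. The read-through gene ATP6V1G2-DDX39B (chr6:31530219-31546608) contains DDX39B (chr6:31530219-31542448) on the same strand, and its recovered reads exceeded those of DDX39B by only 24 to 51 in each library. Nearly the same reads were therefore counted for both genes, and the ratio of their levels was between 0.735 and 0.743 in all 6 libraries. The antisense gene DDX39B-AS1 had at most 10 reads in any library and was higher after knockdown (log2 fold change 0.57, SE 0.255, adjusted p = 0.212 in limma and 0.0299 with the replicate block).

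ALYREF, the adaptor, was the most abundant member, at 452, 347 and 322 TPM after knockdown and 494, 369 and 356 TPM in controls. Replicate 1 was the highest library of both groups, the groups overlapped, and ALYREF was lower in all 3 same-numbered pairs, with log2 differences of -0.13, -0.09 and -0.14 (adjusted p = 0.69 in limma and 0.0526 with the replicate block). The log2 fold change was -0.12 (95% interval -0.53 to 0.29), and it was 0.03 without si_CTRL replicate 1. Part of ALYREF lies opposite ANAPC11, which was at 281.0 TPM after knockdown and 280.4 TPM in controls. NXF1, the export receptor, was at 28.6, 24 and 25.5 TPM after knockdown and 30.5, 24.4 and 24.9 TPM in controls. Its log2 fold change was -0.03 (95% interval -0.31 to 0.25), and 7 of 14 alternatives gave it the other sign, up to 0.07.

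In controls the order of the levels was ALYREF, DDX39B, THOC7, DDX39A, THOC3, ZC3H11A, NXF1, THOC2, THOC5 and THOC1, from 406 down to 13.8 TPM. The ranges over the 3 control libraries overlapped between THOC7 and DDX39A, ZC3H11A and NXF1, NXF1 and THOC2, and THOC5 and THOC1. Within every control library, however, THOC7 was above DDX39A, NXF1 above THOC2 and THOC5 above THOC1. ZC3H11A was below NXF1 in si_CTRL replicate 1 and above it in replicates 2 and 3. After knockdown, ZC3H11A moved from rank 6 to rank 8, below NXF1 and THOC5, and the ranges of THOC5, ZC3H11A, THOC2 and THOC1 overlapped from neighbour to neighbour. The upper part of the order, from ALYREF to THOC3, stayed as it was.

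Replicate 1 stood apart for these genes. All 10 members had their highest si_cDCBLD2 level in replicate 1, as did 51.8% of all genes tested, and 9 of 10 had their highest si_CTRL level in replicate 1, as did 47.6% of all genes. The exception was ZC3H11A, whose 3 control values lay within 27.6 to 30.5 TPM. The median member was 0.295 higher in replicate 1 than in the mean of replicates 2 and 3 on the log2 scale after knockdown and 0.298 higher in controls.

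Across the members, 1 of 10 was past both thresholds of the study, an adjusted p under 0.05 and a log2 fold change beyond 1. This was ZC3H11A, on the measure for which it was picked, and nothing is read from the count. Of all genes tested, 0.0787% were lower past both thresholds. At the adjusted p alone ZC3H11A was also the only member called lower, against 0.629% of all genes, and none was called higher, against 0.25% of all genes. In limma-voom on the recovered reads ZC3H11A was also the only member called, where 258 of 13461 genes were lower and 189 higher. At an unadjusted p under 0.05, 2 members were lower, against 19.4% of all genes, and none higher, against 6.78%. With the replicate block, 5 members were lower at the adjusted p (ZC3H11A, THOC2, THOC1, DDX39A and THOC7), but so were 25% of all genes, and ZC3H11A and THOC2 were past both thresholds, against 0.751% of all genes. The groups did not overlap for 2 of 10 members, both lower after knockdown, against 22.3% of all genes. The median log2 fold change of the members was -0.18, and that of all genes tested was -0.08. The calls depended on which library was left out, for the members and for all genes. Without si_cDCBLD2 replicate 1, ZC3H11A, THOC1 and THOC2 were called lower, where 3420 of the 13980 genes were called in either direction. Without si_cDCBLD2 replicate 2 or 3 or any 1 of the 3 si_CTRL replicates no member was called, and 0 of the 13980 genes were. The log2 fold change of ZC3H11A ran from -1.23 to -0.97 over the 6 fits.

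The fold changes of all genes followed the GC content of their transcripts. Over 5 bins of equal numbers of genes, the median log2 fold change was -0.4 in bin 1 (29.8% to 41.8% GC), -0.25 in bin 2 (41.8% to 47%), -0.07 in bin 3, 0.04 in bin 4 and 0.11 in bin 5 (59.3% to 86.4%). The members were split along this axis. The reference transcripts of THOC2 (38.3% GC), THOC1 (39.2%), THOC7 (41.4%) and ZC3H11A (42.3%) were in bins 1 and 2, and those of NXF1 (51.4%), THOC3 (51.5%), DDX39B (51.5%), THOC5 (53.6%), DDX39A (57.2%) and ALYREF (57.5%) were in bins 3 and 4. With each library's GC trend removed (the GC-content offset), the log2 fold change was -0.79 (95% interval -0.99 to -0.58) for ZC3H11A, -0.78 (-1.28 to -0.29) for THOC2, -0.16 (-0.44 to 0.12) for THOC1 and 0.13 (-0.1 to 0.37) for THOC7. With this offset no member was called at the adjusted p, where ZC3H11A had 0.0501, and only 5 of all 13161 genes were called in either direction. With the offset and the replicate block together, ZC3H11A, THOC2 (adjusted p = 0.0105), DDX39A (0.00956) and ALYREF (0.0169) were lower, against 12.7% of all genes, and THOC1 (0.105) and THOC7 (0.169) were not. The part of GC content in these differences was not tested beyond this offset.

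The study's model is that cDCBLD2 binds the microRNA miR-345-5p, so matches to its seed were looked for in the reference transcripts of the members. The mature miRNA (RefSeq, GRCh38.p14, chr14:100307876-100307897, plus strand) and the only match found among the members are shown 5′ to 3′ with the seed, bases 2 to 8, and the letters complementary to it in capitals.
miR-345-5p: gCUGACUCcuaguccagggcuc
THOC1: cttaacttgcaGAGTCAGtttaatctgga
The THOC1 match, GAGTCAG, lies in the coding sequence, in exon 8 of 21 (chr18:254336-254342, minus strand). None of the 10 members had GAGTCAG in the 3′ UTR or the 5′ UTR of its reference transcript. Of the 11803 protein-coding genes tested, 9.4% held it in the 3′ UTR, 12.7% in the coding sequence and 2.1% in the 5′ UTR. The search was for these 7 letters on the transcript strand only, and a match is not a measured site. Genes with a match in the coding sequence had a median log2 fold change of -0.13 and all protein-coding genes of -0.09. Those with a match in the 3′ UTR had -0.11 and those with a match in the 5′ UTR had -0.07. These medians were not adjusted for transcript length or GC content.

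The promoters of the 3 members with the lowest fold changes are shown as the 250 bases before the RefSeq start (GRCh38.p14), 5′ to 3′ on the strand of the gene. Capitals mark GC boxes, GGGCGG on either strand. The same stretches were searched on both strands for a CCAAT box, a TATA box, an ETS-type and a YY1-type site and none of these 4 was found in the 3 sequences.
ZC3H11A, chr1:203795373-203795622, plus strand: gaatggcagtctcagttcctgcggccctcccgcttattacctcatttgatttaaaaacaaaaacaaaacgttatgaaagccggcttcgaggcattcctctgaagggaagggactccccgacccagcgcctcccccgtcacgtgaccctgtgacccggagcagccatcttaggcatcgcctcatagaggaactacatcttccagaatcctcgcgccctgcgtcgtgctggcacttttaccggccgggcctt
THOC1, chr18:268048-268297, minus strand: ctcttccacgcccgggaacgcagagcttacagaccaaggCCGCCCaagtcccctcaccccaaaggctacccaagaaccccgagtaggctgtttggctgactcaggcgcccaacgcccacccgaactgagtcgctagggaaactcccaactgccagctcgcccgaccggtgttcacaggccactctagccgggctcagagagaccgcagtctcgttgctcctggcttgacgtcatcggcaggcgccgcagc
THOC2, chrX:123733053-123733302, minus strand: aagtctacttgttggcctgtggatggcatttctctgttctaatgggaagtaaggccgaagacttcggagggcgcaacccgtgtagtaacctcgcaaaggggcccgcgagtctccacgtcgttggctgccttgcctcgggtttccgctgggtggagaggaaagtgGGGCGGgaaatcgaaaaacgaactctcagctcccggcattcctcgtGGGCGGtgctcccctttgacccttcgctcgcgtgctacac
THOC2 held 2 GC boxes, THOC1 held 1 and ZC3H11A held none, and 42.3% of the 27305 promoters in the table held at least 1. The 3 promoters held 17 CpG dinucleotides in ZC3H11A, 19 in THOC1 and 20 in THOC2. This was within the range of the other members, with 12 in DDX39B, 13 in THOC3, 19 in THOC5, 20 in DDX39A, 30 in NXF1 and 43 in ALYREF. Promoters were found for 9 of the 10 members, THOC7 being the exception. The ETS-type site, searched as CCGGAAG, was in THOC3, THOC5, ALYREF and DDX39B, and in 8.82% of all promoters in the table. The TATA box, searched as TATAAA anywhere in the stretch, was in ALYREF, DDX39B and NXF1, and in 11.1% of all promoters. The CCAAT box was in ALYREF and DDX39A and in 33% of all promoters, and the YY1-type site, searched as ATGGCGG, was in DDX39A and in 2.83% of all promoters. The members whose levels were lowest relative to controls thus had no searched motif in common.

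The other genes of mRNA export were taken from 8 lists by role, 58 genes in all, of which 53 were tested. No gene of these lists was past the adjusted p in limma, in either direction, nor in limma-voom. Of all genes, 0.629% were lower and 0.25% higher in limma, and 258 and 189 of 13461 in limma-voom. At an unadjusted p under 0.05, 20 of the 53 were lower and none higher, beside the 19.4% and 6.78% of all genes. With the replicate block, 27 were lower, against the 25% of all genes given above, and 1, ZC3H12A, named after its values were seen, was higher, against 9.94% of all genes. The median log2 fold change of the 53 was -0.25, and -0.1 with the GC-content offset, where that of all genes was -0.01. The median GC content of these genes was 45.4%, against 50% for all genes tested.

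At the nuclear pore, all 12 genes had negative log2 fold changes, as did 62.4% of all genes tested, and their median was -0.2. TPR, which forms the basket on the nuclear face of the pore, was at 11.7, 3.78 and 5.33 TPM after knockdown and 22.3, 14.1 and 15.1 TPM in controls, a log2 fold change of -1.29 (SE 0.372, adjusted p = 0.104 in limma and 0.0062 with the replicate block). RANBP2, a component of the cytoplasmic filaments, was at 14.2, 4.04 and 5.62 TPM against 23, 12.9 and 14.5 TPM, with overlap, a log2 fold change of -1.12 (SE 0.428, adjusted p = 0.165 and 0.00813). In both genes knockdown replicate 1 was the highest of its group, as in THOC2. Their reference transcripts had 40.1% and 39.2% GC. With the GC-content offset the log2 fold change was -0.91 for TPR (adjusted p = 0.118 in limma and 0.00759 with the block). For RANBP2 it was -0.72 (0.221 and 0.0124). The median of the 12 genes was -0.13 with the offset.

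Among genes of nuclear retention and decay, which hold back or destroy transcripts that are not exported, all 6 had negative log2 fold changes (62.4% of all genes did), with a median of -0.5, and -0.33 with the GC-content offset. The largest were ZFC3H1, a subunit of the PAXT connection, at -1.02 (SE 0.314, adjusted p = 0.116 in limma and 0.00505 with the replicate block), and the exosome helicase MTREX at -0.8 (SE 0.294, adjusted p = 0.155 and 0.0107). With the block all 6 were lower at the adjusted p, against 25% of all genes, and with the GC-content offset and the block 5 of 6 were, against 12.7%.

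Of the cap-binding list, NCBP1, the large subunit of the nuclear cap-binding complex, was at 24.9, 15.6 and 17.3 TPM after knockdown and 39.4, 28.5 and 33 TPM in controls, without overlap, with a log2 fold change of -0.79 (SE 0.196, adjusted p = 0.0849 in limma and 0.00444 with the replicate block). NCBP3 had -0.3 (SE 0.113, adjusted p = 0.158 and 0.0288). In the list of TREX-associated adaptors, FYTTD1, also called UIF, had -0.55 (SE 0.2, adjusted p = 0.15 and 0.0116), and SARNP had -0.23 (SE 0.107, adjusted p = 0.219 and 0.0333). The SR proteins SRSF3 and SRSF7, which also recruit NXF1, had -0.48 (SE 0.158, adjusted p = 0.128 and 0.0078) and -0.41 (SE 0.209, adjusted p = 0.262 and 0.00854). All 3 SR genes tested were lower with the block, against 25% of all genes, and 1 of 3, SRSF1, with the block and the GC-content offset, against 12.7%. With the offset the log2 fold change was -0.45 for NCBP1, -0.15 for NCBP3, -0.17 for FYTTD1 and 0.01 for SARNP. It was -0.09 for SRSF3 and -0.05 for SRSF7. Of these genes only NCBP1 was lower at the adjusted p with the offset and the block (0.00667).

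In TREX-2, the complex that ties transcribed genes to the pore, the 6 genes had a median of -0.24, and 0.07 with the GC-content offset. CETN3 had a log2 fold change of -0.52 (SE 0.138) and PCID2 one of -0.32 (SE 0.104), with adjusted p of 0.0933 and 0.124 in limma and 0.0104 and 0.0402 with the replicate block, and with the offset these were -0.02 and -0.1. The partners of NXF1, NXT1 and NXT2, had -0.07 (SE 0.101) and -0.42 (SE 0.323) and were not past the adjusted p, with the replicate block either (0.342 and 0.0621). NXF2 and NXF5 were listed at 0 in all 6 libraries.

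Other genes named for the same CCCH zinc finger were split by sign in about the proportion of all genes. Of 13 tested, 8 had negative and 5 positive log2 fold changes (62.4% of all genes were negative), from -0.74 for ZC3H13 (SE 0.19, adjusted p = 0.0892 in limma and 0.00849 with the replicate block), a subunit of the m6A writer complex, and -0.68 for ZC3H6 (SE 0.174, adjusted p = 0.0888 and 0.0158) to 0.3 for ZC3H12A (SE 0.158, adjusted p = 0.27 and 0.0245). The median was -0.27, and -0.08 with the GC-content offset. No tested gene of this list reached the size of the ZC3H11A difference.

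The genes most like ZC3H11A across the 6 libraries were found by Pearson correlation of log2(TPM + 1) among genes whose mean was 10 TPM or more. They were XPOT, the tRNA export receptor (r = 0.9987), RPRD2 (0.9984), the splicing kinase CLK1 (0.9977), the nuclear receptor coactivator NCOA3 (0.9976) and ARHGEF12 (0.9973). XPOT was at 118, 93.2 and 107 TPM after knockdown and 191, 174 and 186 TPM in controls. Likeness in r is not likeness in size, since RPRD2 was at 85.6% of its control mean and XPOT at 57.7%. Among the members, r was 0.917 for THOC2, 0.841 for THOC1, 0.631 for THOC7, 0.625 for DDX39A and 0.585 for DDX39B, and below 0.4 for ALYREF (0.399), THOC3 (0.309), NXF1 (0.28) and THOC5 (-0.06). THOC2 ranked as number 732 and THOC1 as number 1470 of the 8186 genes compared, so neither was among the closest. These values are a description over 6 libraries that share 2 groups and the same replicate structure.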

How the data were processed

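The 10 members and all gene lists were chosen by name with earlier results of these data known. The authors deposited TPM per gene, each library summing to 1000000. The submitters' processing notes name fastp 0.20.1, HISAT2 2.1.0, StringTie 2.0 and hg38, without their roles. The annotation and the strand setting are not given in the sources used here. The authors' own test was DESeq2 on counts that were not used here.

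The 13980 genes whose mean was 1 TPM or more were tested with limma 3.58.1 (R 4.3.3) on log2(TPM + 1), with an intensity trend in the variance prior and p-values adjusted by Benjamini and Hochberg's method. No block was in the main design. The replicate numbers come from the labels, and libraries with the same number deviated together from their group means (r = 0.5598, 0.343 and 0.3621), as did numbers 2 and 3 across groups (0.2145 and 0.2473), so the fit with a replicate block is given where a call changed. Alternatives were upper-quartile scaling, no filter, a pseudocount of 0.1, a GC-content offset (loess, span 0.5, GENCODE release 29 transcripts, 94.1% of genes), limma-voom on recovered reads (at least 10 in 3 libraries), and leaving out each library.

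Reads were recovered as whole multiples for 100% of the 17285 genes above 0 in all libraries (within 0.005 reads), against 0.0116% with library factors moved at random. Fits were tested on simulated data. Named beside the members were the 2 genes with the largest log2 fold change in each list, ZBED6, ZC3H11B, ATP6V1G2-DDX39B and DDX39B-AS1 as overlaps or copies, and the 5 genes most like ZC3H11A. USP14, ANAPC11 and NIPSNAP1 were added after their values were seen, and further overlapping genes are not named. Plots used matplotlib 3.10.9.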

Additional observations from a re-analysis of the deposited data

How the results depend on the processing

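With 3 libraries per group the calls depended on the fit. The count of members past both thresholds, 1 as reported, was 0 with upper-quartile scaling, with no filter and with the GC-content offset, alone or with the replicate block. It was 2 with the replicate block and with limma-voom and the block, and 0 to 2 when 1 library was left out. The count of members lower at the adjusted p, also 1, was 0 with upper-quartile scaling, no filter or the GC-content offset. It was 5 with the replicate block, 4 with the GC-content offset and block, 3 with limma-voom and the block, and 0 to 3 without 1 library. In either direction, 2 of 13980 genes were called with upper-quartile scaling, 4 of 25278 with no filter and 5 of 13161 with the GC-content offset. With the block these numbers were 4891 of 13980, 3201 of 13161 with the offset, and 5708 of 15018 with limma-voom. Without si_cDCBLD2 replicate 1 it was 3420 of 13980, and 0 without any other library. No member was higher in any fit. Of the other export genes, 0 were lower as reported, 27 with the replicate block, 14 with the GC-content offset and block, 24 with limma-voom and the block, and 0 to 21 without 1 library, where 21 came without si_cDCBLD2 replicate 1. Those higher numbered 0, and 1, 1 and 4 in the 3 blocked fits. Of all genes, 25%, 12.7% and 2990 of 13461 were lower in these 3 fits, in the same order. Those higher were 9.94%, 1524 of 13161 and 2556 of 13461. The 13461 are the genes tested both in the main fit and in limma-voom. The replicate block changed no other call among members. A pseudocount of 0.1 and limma-voom without the block changed none of these counts of members and of other export genes.

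The log2 fold changes moved by less than 1 SD between replicates in 134 of 140 comparisons of a member with an alternative. The other 6 were the GC-content offset, with and without the block, on ZC3H11A (-0.79), THOC1 (-0.16) and THOC7 (0.13). The yardstick is wide for a gene that varies between replicates. THOC2 went from -1.2 to -0.78 with the offset and was counted as moved by less. Its SD on the log2 scale was 0.721 after knockdown and 0.292 in controls. ZC3H11A, the only member called as reported, kept its sign. It stayed between -1.23 and -0.79 and THOC2 between -1.61 and -0.78, whereas the signs of NXF1, THOC3, THOC5, THOC7 and ALYREF depended on the setting. Adjusted p for ZC3H11A was over 0.05 in 8 of the 14 alternatives. Over the 14 alternatives the adjusted p ran from 0.000484 to 0.32 for THOC2, from 0.00405 to 0.47 for THOC1, from 0.0153 to 0.649 for THOC7, from 0.00956 to 0.676 for DDX39A, from 0.0169 to 0.966 for ALYREF and from 0.0589 to 0.82 for DDX39B.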
